A study of Mus musculus with 12 samples.

Results

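The nuclear genes of the respiratory chain encode most subunits of the 5 complexes of oxidative phosphorylation in the inner mitochondrial membrane. They were picked from the expression table of 23284 genes by symbol (Nduf, Sdh, Uqcr, Cox and Atp5 names of subunits, without pseudogenes) and by a mean of at least 1 FPKM over 12 mouse livers. FPKM counts sequenced fragments relative to transcript length and to the number of mapped fragments, so levels can be compared between genes. Of 85 symbols matched, 79 passed the level rule: 37 of complex I, 4 of complex II, 8 of complex III, 12 of complex IV, 15 of complex V, and 3 that the symbols admit although their products are not structural subunits. Those 3 are Cox4nb, which RefSeq now lists as Emc8, and the ATP synthase-associated genes Atp5s and Atp5sl. The other 76 are called the subunits here.

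Complexes I and II pass electrons from NADH and succinate to ubiquinone, complex III passes them to cytochrome c, and complex IV passes them to oxygen. Complexes I, III and IV pump protons, and complex V, the ATP synthase, uses the proton gradient to make ATP. In liver these complexes oxidise what beta-oxidation and the citric acid cycle supply, and complexes I, III, IV and V also contain subunits encoded by mitochondrial DNA. The table held 0 rows of mitochondrially encoded genes, so those subunits were not analysed here.

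All 12 mice lacked apolipoprotein E and mouse apolipoprotein A-I (Apoa1-/- Apoe-/-, called DKO), and 5 of them also expressed human APOA1 (DKO/hA1). Diets, standard chow or a high-fat Western feed, lasted 22 weeks, giving 4 DKO chow, 3 DKO Western, 2 DKO/hA1 chow and 3 DKO/hA1 Western livers. Human APOA1 encodes the main protein of high-density lipoprotein. The labels give neither the promoter that drives it nor the age or sex of the mice, and each library is listed as a separate sample without saying how animals were housed or batched. The deposited Apoa1 row was at 30.4 to 77.4 FPKM in the 7 DKO livers and at 122 to 240 FPKM in the 5 DKO/hA1 livers. Which exons the mouse deletions remove is not given, so residual Apoa1 reads, and the Apoe row at 12.9 to 89.8 FPKM, do not check the knockouts.

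Library sums of FPKM were 379689 to 578927, and relative depth, read from the steps between low values, ran from 0.527 to 1.28 of that of DKO chow replicate 1. A number in the sample descriptions (41 to 49 on Western diet, 54 to 59 on chow), whose meaning the labels do not give, separates the diets completely, so diet and that number cannot be told apart. The summed level of 14 hepatocyte markers was 23285 to 38000 FPKM in every liver, and 7 markers of skeletal and heart muscle summed to 0.33 to 1.94 FPKM. A pair of Western diet livers, DKO Western replicate 2 and DKO/hA1 Western replicate 3, stood apart from the other 10. Their neutrophil markers summed to 4218 and 4477 FPKM (29.1 to 1359 elsewhere) and their acute phase genes to 137592 and 116846 FPKM (5882 to 76507 elsewhere). Lcn2 is in both lists, so these sums are not separate readings. The respiratory chain genes were low in the same livers, so the results are given with and without them.

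Promoters of subunits were read because the subunits vary together across livers, as described further on. RefSeq sequence of build GRCm38.p6 (250 bases before the gene's start to 50 after it) was found for 64 of 76 subunits, and motifs of 4 kinds of factor linked to mitochondrial genes were searched on both strands, with the TATA box beside them. The first 3 promoters below are those of the highest-expressed subunits holding these motifs, with each match named here in capitals. Positions count from the gene's start. Matches to the looser motif of the next paragraph are left in lower case, in Cox6a1 and Atp5g3. Cox6a1, at chr5:115348909-115349208 on the minus strand, holds the nuclear respiratory factor 1 motif, the arm GCGCA joined to its inverted repeat, from base -162 and the ETS-family motif CCGGAAG, in reverse complement, from base -16. Atp5j2, at chr5:145191492-145191791 on the minus strand, holds the YY1 motif AAGATGGC from base 24 after the start, and Atp5g3, at chr2:73911277-73911576 on the minus strand, holds the estrogen-related receptor motif TCAAGGTCA, in reverse complement, from base -52. Cox7a1, at chr7:30183921-30184220 on the plus strand, holds none of them and is shown as a subunit whose levels do not follow the rest.
Cox6a1: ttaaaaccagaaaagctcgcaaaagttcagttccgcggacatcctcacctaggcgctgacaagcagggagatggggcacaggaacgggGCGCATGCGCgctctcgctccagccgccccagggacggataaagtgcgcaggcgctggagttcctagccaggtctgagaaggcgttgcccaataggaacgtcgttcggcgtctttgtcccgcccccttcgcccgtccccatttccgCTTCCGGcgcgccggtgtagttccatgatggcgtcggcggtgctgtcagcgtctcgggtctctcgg
Atp5j2: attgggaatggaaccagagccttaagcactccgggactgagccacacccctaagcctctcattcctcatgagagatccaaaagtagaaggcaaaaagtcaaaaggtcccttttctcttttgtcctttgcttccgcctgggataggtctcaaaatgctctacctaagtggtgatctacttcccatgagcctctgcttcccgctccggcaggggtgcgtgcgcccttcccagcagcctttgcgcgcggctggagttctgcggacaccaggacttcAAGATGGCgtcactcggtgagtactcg
Atp5g3: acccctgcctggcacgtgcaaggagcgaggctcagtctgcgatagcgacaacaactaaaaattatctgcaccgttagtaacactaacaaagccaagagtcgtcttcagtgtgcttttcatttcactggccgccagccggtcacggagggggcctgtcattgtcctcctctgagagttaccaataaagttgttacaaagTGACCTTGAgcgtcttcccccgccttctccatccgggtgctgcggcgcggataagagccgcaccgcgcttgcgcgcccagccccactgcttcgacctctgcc
Cox7a1: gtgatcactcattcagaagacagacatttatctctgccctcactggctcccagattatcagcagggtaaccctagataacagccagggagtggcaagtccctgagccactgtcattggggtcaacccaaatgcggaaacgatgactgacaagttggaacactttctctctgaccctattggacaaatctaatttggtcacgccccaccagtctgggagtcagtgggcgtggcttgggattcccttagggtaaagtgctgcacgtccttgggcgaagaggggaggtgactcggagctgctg

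A looser form of the nuclear respiratory factor 1 motif (the arm GCGCA, any base, then GCGC, which includes the strict form) was found in 17 of 64 subunit promoters (26.6%), against 5.19% of 27025 genes and 11.6% of the 9200 tested genes that have a promoter sequence. The strict form was in 5 (7.81%, against 1.07% and 2.32%) and the YY1 motif in 10 (15.6%, against 3.19% and 5.38%). The ETS motif CCGGAAG was in 16 (25%), against 9.93% of all genes and 20.3% of tested genes. TCAAGGTCA was in 2 (3.13%, against 0.466% and 0.326%), and a TATAAA box in 5 (7.81%, against 15.7% and 9.74%). These are counts of letters in a window, not of bound sites.

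Subunit messages were abundant. Together the 79 genes made up 1.52 to 3.01% of the sum of FPKM over all rows of a library, lowest in DKO Western replicate 2 (1.52%) and DKO/hA1 Western replicate 3 (1.58%) and highest in DKO chow replicate 4. Without the small RNA genes and the genes listed at 0 throughout a group the shares were 1.61 to 3.11%, with DKO/hA1 Western replicate 3 (1.61%) below DKO Western replicate 2 (1.63%). The median of the gene means was 74.7 FPKM in complex I, 129.7 in complex II, 153.8 in complex III, 170.3 in complex IV and 157.8 in complex V. The highest-expressed genes were Atp5b, the catalytic beta subunit of ATP synthase (535 FPKM), Ndufa4 (479 FPKM), whose symbol places it in complex I although its protein is now known as a complex IV subunit, and Cox4i1, a nuclear core partner of complex IV (463 FPKM). Levels within a complex were far from equal even though each complex takes its subunits in fixed ratios. In complex III they ran from 112 FPKM for the core protein gene Uqcrc1 to 412 FPKM for the small subunit gene Uqcrq, and in complex II from 112 FPKM for the membrane anchor gene Sdhd to 182 FPKM for the flavoprotein gene Sdha.

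Tissue isoforms were expressed as the liver form. The 6 symbols under the level rule were all of complex IV, mostly muscle or testis forms: Cox6b2 (0.27 FPKM), Cox4i2 (0.13), Cox6a2 (0.09), Cox8b (0.03), and Cox7b2 and Cox8c, which were listed at 0. Their partners stood at 235 FPKM (Cox6b1), 463 (Cox4i1), 403 (Cox6a1) and 204 (Cox8a). Just inside the rule were Ndufa4l2, a hypoxia-responsive relative of Ndufa4, at 1.26 FPKM, and Atp5s at 2.78 FPKM, and Cox6b2 was just outside. Cox7a1, the heart and muscle form of its subunit, was at 3.90 FPKM against 64.0 for the ubiquitous form Cox7a2. All 3 genes for the same mature c subunit of the ATP synthase rotor were expressed, Atp5g3 at 425 FPKM, Atp5g2 at 112 and Atp5g1 at 77.6.

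**Figure D1:**
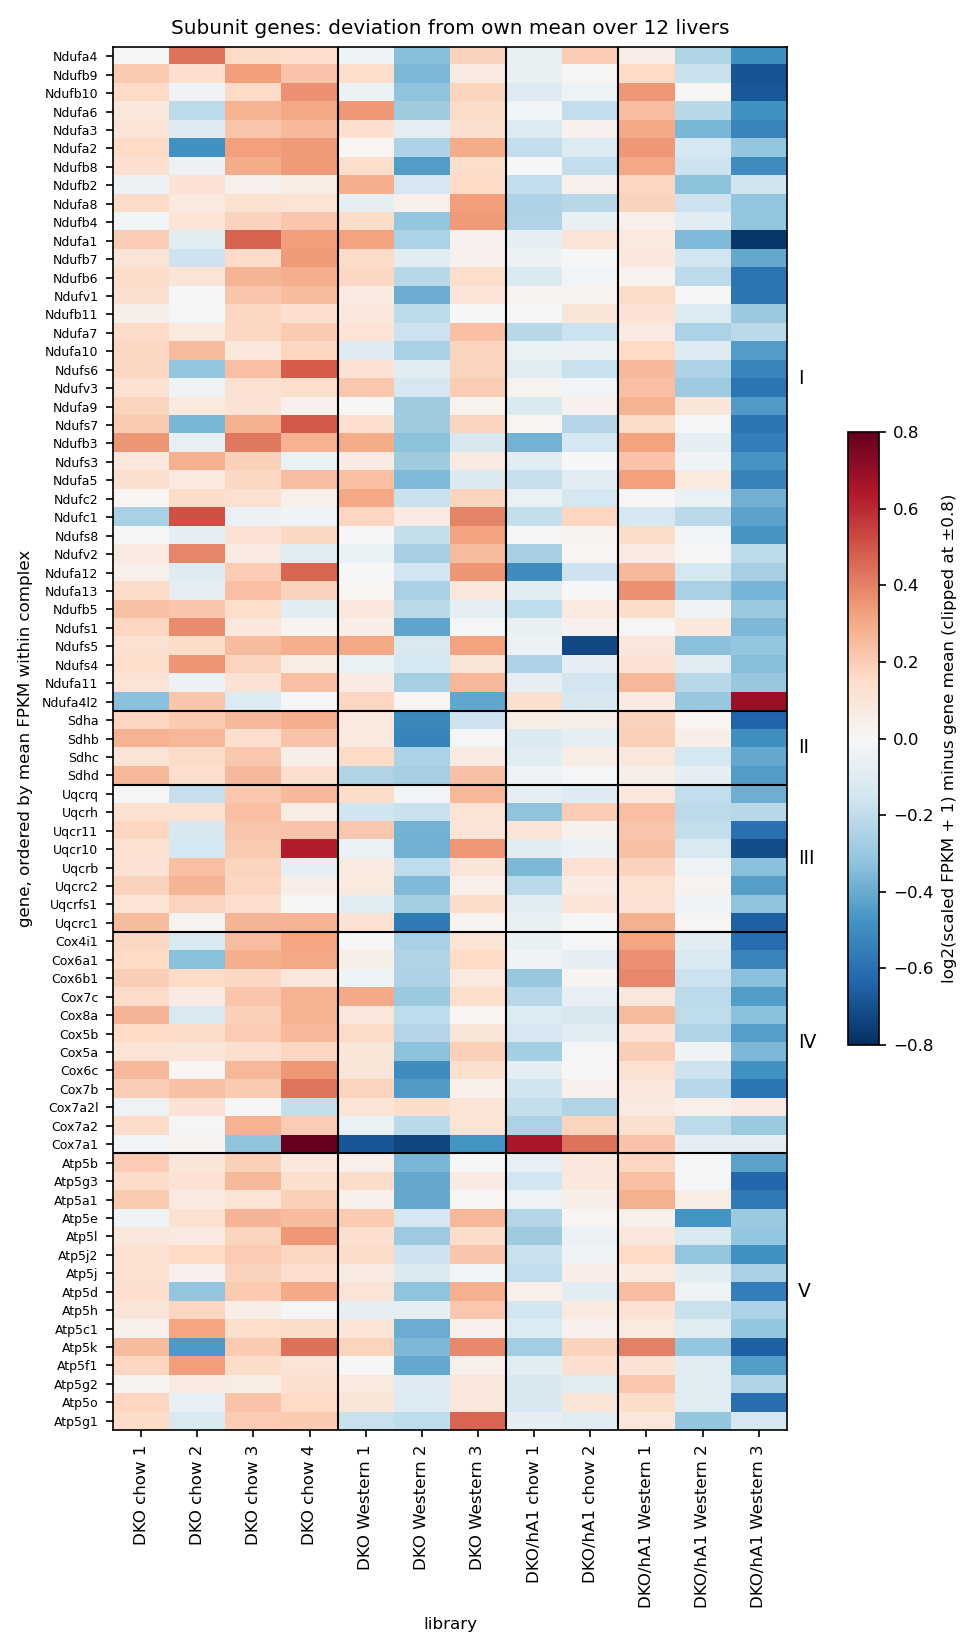
Level of the subunit genes (rows, by complex, without 1 that is not shown) in each of 12 livers (columns), as the deviation of log2(scaled FPKM + 1) from the gene's own mean over the 12. Most rows are above their mean in the 4 DKO chow columns and lowest in DKO/hA1 Western replicate 3, with DKO Western replicate 2 next.

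Subunits of all 5 complexes moved as a block from liver to liver. The mean deviation of the 76 subunits from their own means (log2) was 0.12, 0.05, 0.18 and 0.20 in the DKO chow livers and 0.08, -0.26 and 0.12 in the DKO Western livers. It was -0.11 and -0.02 in the DKO/hA1 chow livers and 0.17, -0.13 and -0.41 in the DKO/hA1 Western livers. Both Western diet groups therefore held livers above 0 and a liver far below it, whereas the 4 DKO chow livers were all above 0 and the 2 DKO/hA1 chow livers both below it.

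The low livers were low for nearly every subunit. DKO Western replicate 2 was below both other DKO Western livers for 73 of 76 subunits (27.7% of all genes tested), with a median difference of -0.37 on the log2 scale, and the largest was for Uqcrc1 (-0.64). DKO/hA1 Western replicate 3 was below both other livers of its group for 69 of 76 subunits (35.1% of all genes tested), with a median of -0.42 and the largest for the membrane-arm subunit gene Ndufb10 (-0.86). Ndufa4l2 went the other way in both, 0.14 and 0.81 above its groupmates' mean. These livers were the 2 lowest of all 12 for 42 of 76 subunits (55.3%, against 5.55% of all genes tested), and DKO/hA1 Western replicate 3 alone was the lowest for 59 (77.6%, against 14.0%). They were the livers with the highest neutrophil and acute phase sums given above. Their hepatocyte marker sums were 38000 and 29265 FPKM. As a mean log2 level the same markers were at 10.34 and 10.11 in them, in a range of 10.04 to 10.52 over all 12 livers. The part of inflammation or of inflammatory cells in the low subunit levels was not tested, and in bulk liver fewer cells of a type and less RNA per cell cannot be told apart.

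**Figure D2:**
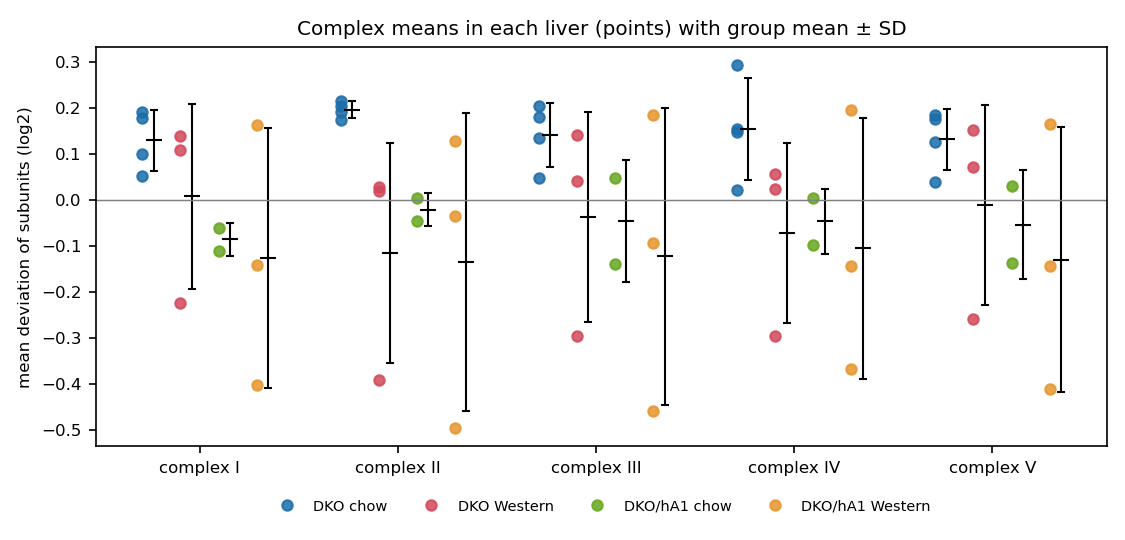
Mean deviation of the subunits of each complex from their own means (log2) in each liver (points, coloured by group), with the group mean and SD beside them (n = 4, 3, 2 and 3). DKO chow livers are above 0 in every complex, and each Western diet group holds a liver between -0.22 and -0.50.

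Western diet was compared with chow first in mice without human APOA1. Subunit messages were slightly lower on Western diet in all 5 complexes, and no single gene passed the test. Of 79 genes 73 had a log2 fold change below 0 (51.4% of all genes tested). The median was -0.14 (all genes -0.01), or -0.37 with libraries scaled to equal totals (all genes -0.19), and 0 of 79 were called at a limma adjusted p below 0.05, against 0.113% of 11546 genes called. At an unadjusted p below 0.05, 0 were higher and 2 lower (7.08% and 4.68% of all genes). On scaled values the Western livers lay wholly below the chow livers in 10 genes (5.45% of all genes) and wholly above in 0 (7.25%). The 10 were Sdha, Sdhb, Ndufa9, Cox5b, Cox6b1, Cox7a1, Cox7b, Atp5a1, Atp5b and Atp5f1.

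Complex II, succinate dehydrogenase, had the lowest median of the 5, at -0.34, against -0.13 in complex I, -0.20 in complexes III and IV and -0.10 in complex V. Sdha, the subunit that binds FAD and oxidises succinate (chr13:74322255-74350240), was at 201, 192, 214 and 216 FPKM in the DKO chow livers and at 196, 127 and 165 FPKM in the DKO Western livers. In deposited FPKM the groups overlap by replicate 1 on Western diet. Its mean was 206 ± 11.3 FPKM (SD, n = 4) on chow and 162 ± 34.6 (SD, n = 3) on Western diet, a log2 fold change of -0.43 ± 0.19 (SE, 95% interval -0.86 to -0.01, limma adjusted p = 0.416). Sdhb, the iron-sulfur subunit, went from 163 ± 7.41 to 134 ± 30.0 FPKM (-0.38 ± 0.18, limma adjusted p = 0.449). The anchor genes Sdhc and Sdhd were at -0.14 ± 0.14 and -0.29 ± 0.15. Replicate 2 was the lowest Western liver for all 4 of these genes, and the spread of the Western group was larger than that of the chow group in each.

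In the other complexes the core genes lay in the same range. In complex I the log2 fold change was -0.29 ± 0.15 for Ndufs1, -0.23 ± 0.18 for Ndufv1, which holds the NADH oxidation site, and -0.01 ± 0.16 for Ndufs8. In complex III it was -0.35 ± 0.22 for Uqcrc1 and -0.18 ± 0.14 for the Rieske iron-sulfur protein gene Uqcrfs1. Complex IV gave -0.20 ± 0.21 for Cox4i1 and -0.35 ± 0.18 for Cox7b, and complex V -0.25 ± 0.17 for Atp5b and -0.32 ± 0.16 for Atp5f1, of the stalk that holds the catalytic head. The 95% interval of a log2 fold change, not adjusted for the number of genes, reached a median of 0.37 to either side over the 79 genes. For a typical subunit smaller differences therefore left 0 inside that interval. The interval is not the limit for a call, which was made after adjustment. Larger differences were not called either, such as Cox7a1 at -0.81 ± 0.26 (limma adjusted p = 0.276).

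Without the 2 low livers the diet difference in DKO was smaller. The median over 79 genes was -0.05, with 50 below 0 and 0 called. Complex II stayed lowest with a median of -0.20, and complex I was at -0.01, complex III at -0.07, complex IV at -0.10 and complex V at -0.03. With all livers kept, the low ones included, neutrophil markers (10 tested) had a median log2 difference of 2.70 between DKO Western and DKO chow. The 14 acute phase genes had one of 2.32. The 15 macrophage markers summed to 1024 to 1354 FPKM on Western diet and 326 to 756 on chow. Their part in the subunit levels was not tested.

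In mice with human APOA1 most subunits were again slightly lower on Western diet over all livers, and no gene passed the test. The median log2 fold change over the 79 genes was -0.05, with 54 below 0 (50.7% of all genes tested), and 0 of 79 were called (1.43% of all genes). With equal totals the median was -0.14 (all genes -0.08). At an unadjusted p below 0.05, 1 was higher (8.11% of all genes) and 0 lower (5.40%). On scaled values the Western livers lay wholly above the chow livers in 2 of 79 genes, Cox4nb and Cox7a2l (15.5% of all genes). They lay wholly below in 1, Cox7a1 (14.9%). Complex medians were -0.04 in complex I, -0.13 in II, -0.08 in III, -0.06 in IV and -0.09 in V. Sdha was at 185 ± 3.65 FPKM on chow (n = 2) and 166 ± 47.1 on Western diet (n = 3), from 205, 180 and 113 FPKM. Cox4i1 was at 441 and 447 FPKM on chow and at 572, 425 and 296 on Western diet, so the chow livers lay inside the Western range.

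The sign of this difference rested on DKO/hA1 Western replicate 3. Without both low livers 61 of 79 genes were above 0, the median was 0.09, and the complex medians were 0.11, 0.03, 0.10, 0.11 and 0.07 for complexes I to V, with 0 called. Without DKO/hA1 Western replicate 1 in its place the median was -0.23. Averaged over the genotypes, 70 of 79 genes were below 0 on Western diet (51.6% of all genes), and 9 above (48.4%), with a median of -0.10 (-0.25 with equal totals, where all genes were at -0.14), and 0 were called (4.07% of all genes). At an unadjusted p below 0.05, 1 was higher (11.5% of all genes) and 1 lower (8.05%). Without the 2 low livers that median was 0.02, with 50 above 0. Averaged over genotypes, the sign of the median therefore depended on those 2 livers, whereas in DKO it stayed below 0 without them (-0.05). Both are Western livers that were low for nearly every subunit, so leaving them out necessarily raised the Western means.

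**Figure D3:**
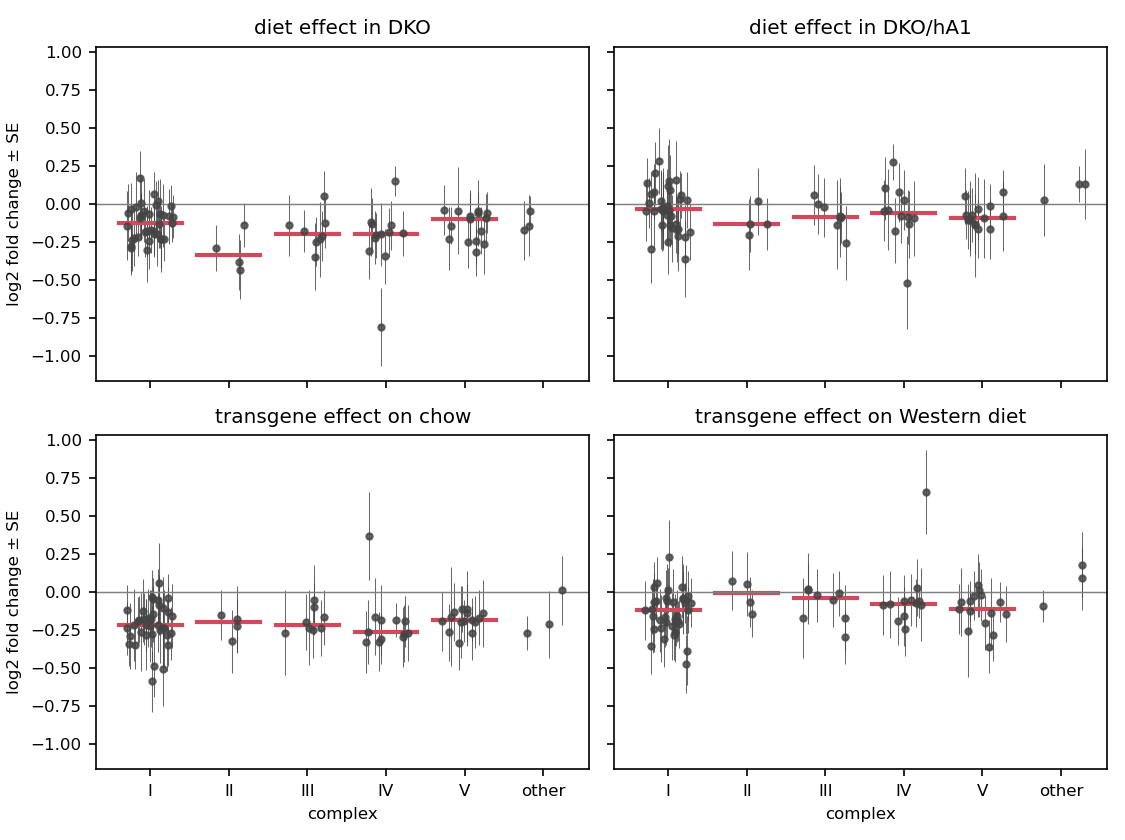
Log2 fold change with its SE for each of the 79 genes (points) in the 4 comparisons, by complex, with the median of each complex as a red line and the 3 genes that are not structural subunits as "other". Points lie mostly below 0 in DKO on Western diet and in DKO/hA1 on chow, and the far point of complex IV is Cox7a1.

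Human APOA1 was next compared with its absence on each diet. On chow, where neither low liver takes part, subunit messages were lower with the transgene in all 5 complexes, by a small amount. Of 79 genes 76 were below 0 (50.5% of all genes tested) and the median was -0.20, with complex medians of -0.22, -0.20, -0.22, -0.27 and -0.18 for complexes I to V. In 32 genes both DKO/hA1 livers were below all 4 DKO livers (11% of all genes), in 0 above them (10.6%). None was called: 0 of 79 passed an adjusted p of 0.05 with limma, against 0.0779% of all genes. At an unadjusted p below 0.05, 0 were higher (3.83% of all genes) and 6 lower (3.61%), namely Ndufs5, Ndufa7, Ndufs4, Ndufa12, Ndufa8 and Cox4nb.

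Of those, 5 belong to complex I. Ndufs5, an accessory subunit (chr4:123712710-123718186), was at 31.2, 29.5, 34.3 and 34.8 FPKM in the DKO chow livers and at 27.9 and 16.7 FPKM in the DKO/hA1 chow livers. Its log2 fold change was -0.59 ± 0.20 (95% interval -1.02 to -0.15, limma adjusted p = 0.473), and the DKO/hA1 livers differed from each other by more than the DKO livers did. Ndufa7 was closer within groups, 76.0 to 88.9 FPKM against 66.9 and 67.9 (-0.35 ± 0.14, limma adjusted p = 0.609). Ndufs4, which is needed to complete the NADH-oxidising module, was at 27.1 to 31.4 FPKM against 22.1 and 24.6 (-0.34 ± 0.14, limma adjusted p = 0.612). Ndufa8 was at 90.2 to 102 FPKM against 78.0 and 77.8 (-0.35 ± 0.16).

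Only 2 DKO/hA1 chow livers carry this comparison. Both have the description number 57, as does DKO chow replicate 3. Against that liver alone, DKO/hA1 replicate 1 was lower for 75 of 79 genes (median -0.30) and replicate 2 for 73 (median -0.20), against 50.4% and 50.3% of all genes. With any liver left out the median lay between -0.24 and -0.16, and 0 genes were called. With libraries scaled to equal totals the median was -0.12, where that of all genes was 0.06, a difference of -0.18 between the members and all genes, and 0 of the 79 had an unadjusted p below 0.05. Subunit levels in several chow livers moved with base composition. In DKO chow replicate 2, the shallowest library, the deviation of the 76 subunits had a rank correlation of -0.57 with transcript GC content. That of 11102 genes was -0.44. In the DKO/hA1 chow livers the values were 0.44 and -0.30 over subunits and 0.05 and -0.24 over all genes. The other DKO chow livers ranged from -0.02 to 0.34 over subunits. DKO Western replicate 3, nearly as shallow (0.540 against 0.527), was at 0.09. These values describe genes that share 1 library. Macrophage markers on chow summed to 245 and 613 FPKM with the transgene and 326 to 756 without it.

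On Western diet the sign of the transgene difference depended on the scaling. The median over 79 genes was -0.08, with 64 below 0 (50.2% of all genes) and 15 above (49.7%), but 0.12 when libraries were scaled to equal totals, a scaling that moved the median of all genes to 0.16. Relative to that shift it was -0.04. None of the 79 was called, and 0% of all genes were. At an unadjusted p below 0.05, 1 gene was higher (3.90% of all genes) and 1 lower (1.98%). On scaled values the DKO/hA1 livers lay wholly above the DKO livers in 1 of 79 genes, Cox7a1 (5.6% of all genes). They lay wholly below in 2, Cox7a2l and Ndufc1 (3.34%). The complex medians were -0.12, -0.01, -0.04, -0.08 and -0.11 for complexes I to V, and without the 2 low livers the overall median was -0.07. Replicate 1 of each group carries the description number 41: in that pair the DKO/hA1 liver was higher for 56 of 79 genes, with a median of 0.09.

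Ndufc1, a small accessory subunit of complex I (chr3:51405479-51408955), had the largest negative difference with the transgene on Western diet. It was at 56.9, 51.7 and 66.9 FPKM in DKO Western livers and at 44.5, 41.5 and 35.6 FPKM in DKO/hA1 Western livers. These groups did not overlap (on scaled values 3.34% of all genes lay wholly lower). The log2 fold change was -0.47 ± 0.19 (95% interval -0.89 to -0.06, limma adjusted p = 0.826). On chow the same gene was at 40.4 to 64.5 FPKM without and at 42.8 and 54.3 FPKM with the transgene. Atp5e, the epsilon subunit of the ATP synthase stalk, was at -0.36 ± 0.18 on Western diet and -0.27 ± 0.19 on chow.

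Whether diet acted differently with the transgene was tested as an interaction. Of 79 genes 58 had an interaction above 0 (51.4% of all genes), with a median of 0.13 (0.25 with equal totals, where all genes were at 0.11) and 0 called (0.0173% of all genes). At an unadjusted p below 0.05, 0 were higher and 0 lower (2.64% and 2.29% of all genes). The 95% interval reached a median of 0.57 to either side. All 12 complex IV genes and all 4 complex II genes were above 0, with medians of 0.15 and 0.19, and Sdhb was at 0.40 ± 0.29. Averaged over diets, 76 of 79 genes were below 0 with the transgene (48.8% of all genes) and 3 above (51.2%), the median was -0.14 (-0.01 with equal totals, where all genes were at 0.12), and 0 were called (0.104% of all genes). The lowest adjusted p there was 0.385, for Ndufs5 (-0.47 ± 0.14), and at an unadjusted p below 0.05, 1 gene was higher (4.1% of all genes) and 7 lower (3.92%).

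A few subunits did not follow the rest. Cox7a1, the muscle form (chr7:30184171-30186030), was at 3.54, 3.44, 2.69 and 8.34 FPKM in DKO chow livers and at 1.93, 1.81 and 2.40 FPKM in DKO Western livers. In DKO/hA1 livers it was at 6.32 and 5.19 FPKM on chow and at 4.46, 3.37 and 3.36 FPKM on Western diet. Western livers lay below chow livers in each genotype, and DKO/hA1 Western livers lay above DKO Western livers. On scaled values 5.45% of all genes lay wholly lower on Western diet in DKO and 14.9% in DKO/hA1. With the transgene on Western diet 5.6% of all genes lay wholly higher. The diet difference was -0.81 ± 0.26 in DKO (limma adjusted p = 0.276), -0.52 ± 0.31 in DKO/hA1 and -0.66 ± 0.20 averaged over genotypes (95% interval -1.10 to -0.23, limma adjusted p = 0.0932).

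That gene's call depended on 1 liver. Without DKO chow replicate 4, whose 8.34 FPKM was the highest value, the averaged diet difference was -0.52 ± 0.11 with a limma adjusted p of 0.0274, the only call of any of the 79 genes in any comparison under the alternatives tried. The transgene difference of Cox7a1 was 0.37 ± 0.29 on chow and 0.66 ± 0.27 on Western diet (limma adjusted p = 0.843). Its ubiquitous counterpart Cox7a2 averaged 69.5 ± 8.07 FPKM on chow and 63.2 ± 7.99 on Western diet without the transgene. With it, the values were 62.2 ± 12.4 and 58.5 ± 10.1 FPKM, and all groups overlapped. Muscle markers were at or near 0 in every liver (0 of 7 reached the level for testing), and of 5 fat markers Fabp4 alone did.

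Cox7a2l, a relative of these genes whose protein helps join complexes III and IV into supercomplexes (chr17:83501917-83514333), was higher on Western diet, against the direction of most subunits. It was at 68.1, 70.5, 69.7 and 60.5 FPKM in DKO chow livers and at 78.3, 78.9 and 78.4 in DKO Western livers. In DKO/hA1 livers it was at 61.8 and 58.5 FPKM on chow and at 74.4, 71.6 and 73.0 on Western diet. Chow and Western livers did not overlap in deposited FPKM in either genotype, though on the scaled values they overlapped in DKO. In DKO/hA1, 15.5% of all genes lay wholly higher on Western diet on scaled values. The averaged difference was 0.21 ± 0.08 (95% interval 0.04 to 0.38, limma adjusted p = 0.151), from 0.15 ± 0.10 in DKO and 0.27 ± 0.12 in DKO/hA1. On Western diet the DKO/hA1 livers lay below the DKO livers, by a small difference that was not called (-0.06 ± 0.11). There 3.34% of all genes lay wholly lower on scaled values. Both low livers had Cox7a2l levels like those of their groupmates.

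**Figure D4:**
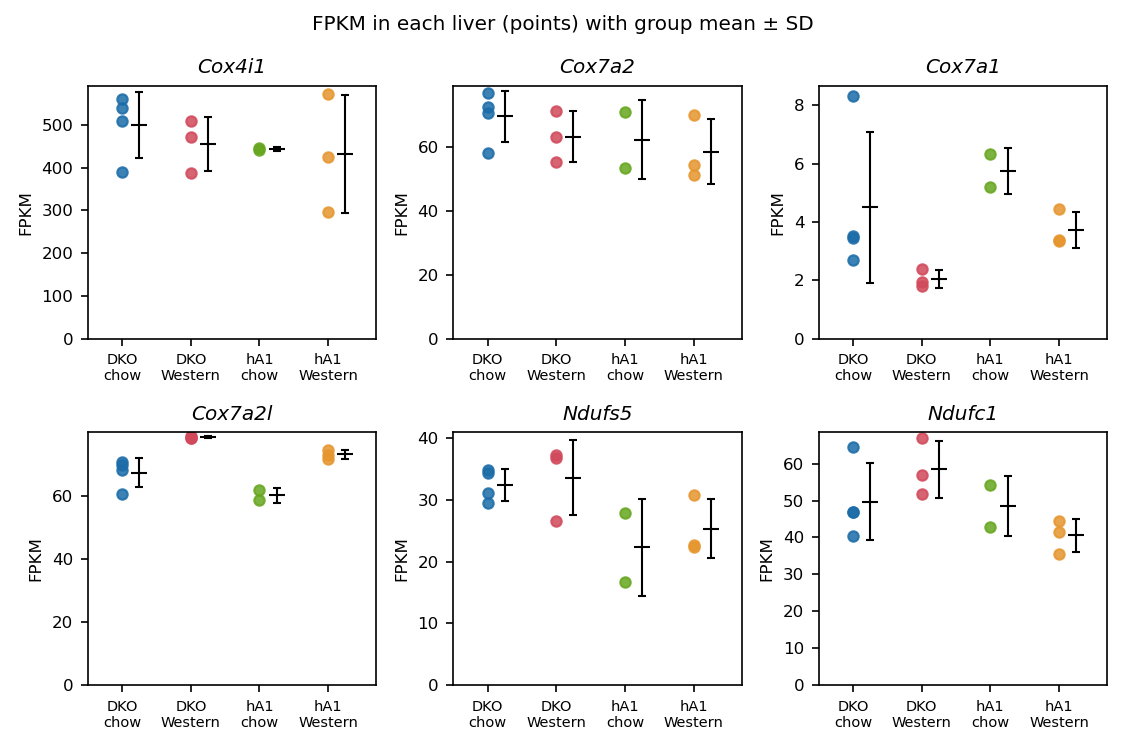
FPKM of 6 genes in each liver (points) with group mean and SD, on linear axes from 0. Cox4i1 and Cox7a2 overlap in all groups, Cox7a1 is lower and Cox7a2l higher on Western diet within each genotype, and Ndufs5 and Ndufc1 have their lowest livers in the DKO/hA1 groups.

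How far the subunits varied together was described by correlating each gene with the mean of the other subunits over the 12 livers. The median r was 0.86, 67 of 76 subunits were above 0.7, and the median over all 2850 pairs was 0.74. Without the 2 low livers the median r was 0.75 over 10 livers. Those closest to the rest were Ndufb9 (0.97), Cox5b (0.96), Cox6c (0.96) and Ndufb6 (0.95). The 4 subunits below 0.5 were Ndufa4l2 (-0.55), Cox7a2l (-0.19), Cox7a1 (0.17) and Ndufc1 (0.37). Atp5s and Atp5sl, which are not structural subunits, were at -0.45 and 0.20. The 12 points share scaling and depth with every gene, so these values describe the libraries and carry no test.

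Other genes of mitochondrial energy metabolism were read from lists made by function. Of 13 further subunits and carriers, among them cytochrome c1 (Cyc1), 12 were below 0 with diet in DKO and 12 with the transgene on chow (median -0.28), with 0 called. Of 30 assembly factors 0 were called, and medians were -0.02 for diet in DKO and -0.12 for the transgene on chow. The 76 genes of the mitochondrial ribosome had a median of 0.01 for diet in DKO (36 below 0) and of -0.12 for the transgene on chow (64 below 0), with 0 called in any comparison. Superoxide and peroxide defence genes (7 tested) also had 0 called, with a median of -0.06 for diet in DKO.

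In the list of 19 citric acid cycle and pyruvate genes, 14 were below 0 for diet in DKO (median -0.18). With diet averaged over genotypes 2 were called, against 4.07% of all genes: 1 higher, Pcx at 0.40 ± 0.10 (limma adjusted p = 0.043), and 1 lower, Dlat at -0.49 ± 0.11 (limma adjusted p = 0.0364). Pcx, pyruvate carboxylase, rose from 106 ± 15.3 to 149 ± 14.6 FPKM in DKO and from 94.1 ± 4.60 to 123 ± 4.40 in DKO/hA1, and Dlat, of the pyruvate dehydrogenase complex, fell from 9.92 ± 0.80 to 7.96 ± 0.99 FPKM and from 12.1 ± 0.77 to 7.64 ± 1.79. Among 7 ATP, ADP and proton carriers, Ucp2 rose on Western diet and was called in DKO/hA1 and averaged over genotypes. Ucp2 is a mitochondrial carrier of the uncoupling protein family that is also expressed in macrophages. It went from 7.03 ± 2.39 to 14.0 ± 2.30 FPKM in DKO and from 5.6 ± 2.8 to 17.0 ± 3.34 in DKO/hA1 (a log2 fold change of 1.5 ± 0.31, limma adjusted p = 0.0446). Averaged over genotypes the difference was 1.19 ± 0.20 (limma adjusted p = 0.0105), and in DKO alone 0.87 ± 0.26 (limma adjusted p = 0.248). The interaction with the transgene was not called (0.62 ± 0.40, limma adjusted p = 0.964). Ucp2 was 1 of 7 carriers called in DKO/hA1, against 1.43% of all genes, and 1 of 7 averaged over genotypes, against 4.07%. In DKO/hA1 9 of 15 macrophage markers were also called on Western diet, all higher, summing to 1517 to 2325 FPKM against 245 to 613 on chow, and their part in the Ucp2 value was not tested.

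Regulators of mitochondrial biogenesis were expressed at low levels and 0 of 17 were called in any comparison. Means over 12 livers were 1.46 FPKM for Ppargc1a and 1.3 for Ppargc1b, the PGC-1 coactivators, 2.97 for Nrf1, 9.56 for the ETS factor Gabpa, 12.3 for the estrogen-related receptor Esrra and 8.88 for Tfam, which packages and transcribes mitochondrial DNA. Esrra was at 8.65 and 7.53 FPKM in DKO/hA1 chow livers and at 8.86 to 16.7 FPKM in the others. Its diet difference in DKO/hA1 was 0.72 ± 0.24 (limma adjusted p = 0.179). Nrf1 went the other way, at 3.72 and 3.56 FPKM in DKO/hA1 chow livers and at 2.13 to 3.44 FPKM in the others. Between the chow groups, 11% of all genes lay wholly lower with the transgene and 10.6% wholly higher on scaled values. Tfam ranged from 7.12 to 10.9 FPKM over all livers, with group means between 8.39 and 9.13.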

How the data were processed

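Liver RNA of 12 mice was sequenced. Per the submitters' processing notes the authors used SAMtools 0.1.19, Bowtie 0.12.8, TopHat 1.3.2 and Cuffdiff on build mm10, with Cuffdiff's version and the annotation not given in the sources used here. The deposited values are FPKM, and total read counts are not used here, so no counting intervals are given. Small RNA genes (776) were left out. So were 22 genes listed at 0 throughout a group while another group was at 1 FPKM or more in each library. The 11546 genes with at least 1 FPKM in at least 2 libraries entered the fit after scaling by trimmed means of log ratios, unweighted (trims 0.3 and 0.05), and log2(FPKM + 1) was tested with limma 3.58.1 in R 4.3.3 (4 group means, trended robust variance, two-sided, Benjamini-Hochberg over all genes, called below 0.05). Adding 1 shrinks fold changes of low genes such as Cox7a1. Groups hold 2 to 4 livers, and where the labels do not say that samples are separate animals, p-values measure only the spread between samples. Named genes were the core subunits, isoform pairs, the highest gene and the largest changes of each complex, genes with an unadjusted p below 0.05 and called genes of the other lists. Members, lists and tests were chosen with earlier results of these data known. The values of 1 subunit gene are not reported here, though it is part of the counts. The fit was tested on simulated data. Annotated pseudogene copies exist in GENCODE M21 for 4 genes (Atp5c1, Atp5k, Atp5l and Uqcrh), whose levels are less certain if reads were shared, and copies under other names were not searched. Alternatives changed the scaling, the value added, the filter, the variance model, the libraries used, a clock gene covariate and blocks.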

Additional observations from a re-analysis of the deposited data

Results flagged for a closer look

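Of 54 named genes checked for a liver far from the others of its group, 3 had one in DKO chow. The check used the critical value for 4 livers, so only DKO chow, the single group of 4, could be flagged. Chance alone flags about 1 in 20 genes, near the share found here. Cox7b, a small subunit of complex IV, was at 6.76 (log2 of scaled FPKM plus 1) in DKO chow replicate 4, above the others at 6.53 to 6.57. Uqcr11, a small subunit of complex III, was at 7.36 in DKO chow replicate 2, below the others at 7.66 to 7.72. Uqcrc1, a core protein of complex III, was at 6.82 in the same liver, below the others at 7.04 to 7.07. DKO chow replicate 2 is the shallowest library. Its subunit levels moved with GC content: the 26 subunits highest in GC had a mean deviation of -0.05 (log2) and the 25 lowest in GC one of 0.19. In DKO chow replicate 4 these means were 0.30 and 0.14. The part of base composition in these values was not tested.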

How the results depend on the processing

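Each comparison was repeated under 23 or 24 alternatives. In 6 of the 7 comparisons 0 of the 79 genes were called under every alternative run. In the diet difference averaged over genotypes the count ran from 0 to 1 when livers were left out in turn (Cox7a1, -0.52, without DKO chow replicate 4). With each liver left out the median log2 fold change ran from -0.22 to -0.05 for diet in DKO, from -0.23 to 0.086 for diet in DKO/hA1, from -0.24 to -0.16 for the transgene on chow, from -0.26 to 0.043 for the transgene on Western diet, from -0.02 to 0.28 for the interaction, from -0.19 to -0.03 for diet averaged and from -0.23 to -0.08 for the transgene averaged. Leaving out DKO/hA1 Western replicate 1 or 3 gave the ends of 5 of these ranges. Scaling to equal totals moved the median to -0.37 for diet in DKO (all genes -0.19, difference -0.18) and to 0.12 for the transgene on Western diet (all genes 0.16). With replicate number as a block 0 genes were called, the medians were -0.15, -0.04, -0.21, -0.08, 0.12, -0.08 and -0.15 in the order above, and the lowest adjusted p was 0.05002, for diet averaged. Same-numbered livers of different groups had correlations of -0.28 to 0.45 in their deviations (median -0.02, 4 of 15 above 0.1). Different numbers had a median of 0.01, so no general pairing by number was seen. The highest values were 0.45 for the replicate 2 chow livers and 0.44 for the replicate 1 Western livers. Groups of 2 to 4 livers cannot show whether such single pairs belong together. With the description number as a random block 0 genes were called. With 2 to 4 livers a group, differences smaller than about 0.4 (log2) in a single subunit were within the 95% interval of a typical gene.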
